A study of Homo sapiens with 12 samples.

Results

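The 10 genes described here encode the cyclins, kinases and kinase inhibitors that govern passage through the G1 phase of the cell cycle: the D-type cyclins CCND2 and CCND3, the E-type cyclins CCNE1 and CCNE2, the D-cyclin kinases CDK4 and CDK6, the CIP/KIP inhibitors CDKN1A and CDKN1B and the INK4 inhibitors CDKN2C and CDKN2D. They were taken by name, as the rows with these symbols in a table of 46863 genes, a rule that uses no measured value. The set of symbols itself was chosen with earlier results of these data known. It leaves out the relatives CCND1, CDKN1C, CDKN2A and CDKN2B, which are described separately. All 10 passed the filter on low counts and are among the 16835 genes tested. The cells were SU-DHL-4, a line of diffuse large B-cell lymphoma (DLBCL) established from a peritoneal effusion and listed as wild type, whose polyadenylated RNA was sequenced in 4 groups of 3 libraries. The cells were exposed for 72 h to DMSO as the control, to 1 µM Ento (Entospletinib, which inhibits SYK, the tyrosine kinase that relays B cell receptor signals), to 0.01 µM AZD (AZD5153, a bivalent inhibitor of BET bromodomain proteins), or to Ento+AZD at these concentrations. Every group stems from this single cell line, and the libraries carry the replicate numbers 1 to 3 in each group. The study describes its samples in general as biologically independent, and the labels do not say what a replicate number marks, so p-values measure the spread between these libraries.

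D-type cyclins bind CDK4 or CDK6, and the active complexes phosphorylate the retinoblastoma protein, which releases E2F transcription factors. E-type cyclins, which are themselves E2F targets, then activate CDK2 at the entry into S phase. INK4 proteins bind CDK4 and CDK6 and keep them from the D-type cyclins, while CIP/KIP proteins bind cyclin-kinase complexes and inhibit CDK2. In germinal centre B cells, from which this type of lymphoma arises, CCND3 is the D-type cyclin known to sustain division.

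Total counts were 18121993 to 24675830 per library, so that a single count was worth 0.0393 to 0.0564 normalized CPM (counts scaled to a common library size). The B cell marker MS4A1 was present at 1702 to 3656 CPM over the 12 libraries, and BCL6 and MME of the germinal centre list were at no less than 615 and 259 CPM, while LMO2 ranged from 2.50 to 59.9 CPM. Of the T cell markers, CD3D and CD2 had 0 counts in all libraries, CD3G at most 2 and CD3E at most 51, but CD247 reached 18.2 CPM. The myeloid markers stayed at or below 1.64 CPM, and CD163 had 0 counts. Of the plasma cell markers, JCHAIN lay between 572 and 924 CPM while PRDM1, SDC1 and IRF4 had at most 9 counts. In bulk RNA fewer cells in a phase of the cell cycle and less RNA per cell cannot be told apart.

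Promoter sequence was available for 8 of the 10 members from RefSeq (GRCh38.p14), as 13 windows of 300 bases from 250 bases before to 50 bases after a transcription start. CCND2 and CCNE2 were not matched. The 3 sequences below were chosen because CDKN1A and CDKN1B had the largest changes among the members and CDK4 held the most E-boxes (CACGTG, the motif bound by MYC and related factors). The 250 bases before the start are printed 5′ to 3′, with E-boxes in capitals for CDK4 and GC boxes (GGGCGG on either strand, bound by SP1-type factors) in capitals for CDKN1A and CDKN1B.
CDK4 chr12:57752311-57752560 (minus strand): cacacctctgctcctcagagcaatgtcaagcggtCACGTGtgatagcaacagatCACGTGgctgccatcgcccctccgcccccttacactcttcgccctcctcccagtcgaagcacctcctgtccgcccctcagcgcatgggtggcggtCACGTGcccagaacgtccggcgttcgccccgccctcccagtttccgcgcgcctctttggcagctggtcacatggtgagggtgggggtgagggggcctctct
CDKN1A chr6:36678464-36678713 (plus strand): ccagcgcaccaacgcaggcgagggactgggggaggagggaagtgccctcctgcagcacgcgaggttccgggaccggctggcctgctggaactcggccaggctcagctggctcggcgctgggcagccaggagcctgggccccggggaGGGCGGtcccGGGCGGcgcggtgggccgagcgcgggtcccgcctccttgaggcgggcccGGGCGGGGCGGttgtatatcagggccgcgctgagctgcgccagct
CDKN1B chr12:12717118-12717367 (plus strand): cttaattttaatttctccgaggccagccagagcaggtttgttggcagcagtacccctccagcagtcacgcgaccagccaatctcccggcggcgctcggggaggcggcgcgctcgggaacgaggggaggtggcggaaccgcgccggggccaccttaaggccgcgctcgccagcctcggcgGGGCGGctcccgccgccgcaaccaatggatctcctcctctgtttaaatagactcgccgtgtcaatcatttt
The CDK4 window, printed for its E-boxes, held 3 of them. At least 1 E-box on either strand occurred in 7.26% of all 35116 RefSeq promoters of this length. This share is background only, as the window was chosen by its count. CDK6 and CDKN2C held a single E-box in 1 and 2 of their windows, respectively. CDKN1A held 4 GC boxes, 2 of them overlapping by a base, and CDKN1B held 1, against a share of 45% of all promoters with at least 1. GC boxes were not particular to these genes. CCNE1 held 7, a window of CDKN2C 6 and a window of CCND3 5. CDK4 held 3, which are not in capitals above. None of the 13 windows held an E2F motif, searched on both strands as TTTCCCGC, TTTCGCGC, TTTGCCGC or TTTGGCGC and found in 3.31% of all promoters. TATAAA was absent from the 13 windows too (11.5% of all promoters), and TGTTTAC, a motif of FOXO factors, was in 1 window of CCND3 (3.42% of all promoters). A match of letters describes the window and was not tested as a binding site.

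With Ento+AZD most members were lower than with DMSO, and the cyclins, the kinases and the CIP/KIP inhibitors fell together. In edgeR's quasi-likelihood test, with p-values adjusted by Benjamini-Hochberg over all tested genes, 8 of 10 members were lower at an adjusted p under 0.05, where 20.8% of all genes were lower, and none was higher, where 19.2% of all genes were. Only CDKN1A and CDKN1B among them also changed by more than 1 on the log2 scale, the study's criterion for a differentially expressed gene (DEG), which 4.89% of all genes met as lower. The libraries of Ento+AZD and DMSO did not overlap for 7 members, all lower with Ento+AZD, which held for 20% of all genes. CDKN2C and CDKN2D did not pass the test.

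Fewer members passed the test with the single agents. With Ento, 2 of 10 members were lower than with DMSO (3.66% of all genes) and none was higher (4.66% of all genes). Both, CDKN1A and CDKN1B, were DEGs, as were 0.535% of all genes in the lower direction. With AZD, 5 of 10 were lower (12.7% of all genes), namely CCND2, CCND3, CDK6, CDKN1B and CDKN2C, and none was higher (9.57% of all genes). CDKN1B was the only DEG among them, where 2.53% of all genes were lower DEGs. The median log2 change of the 10 members was -0.11 with Ento, -0.33 with AZD and -0.48 with Ento+AZD, beside medians of 0.01 over all tested genes in each of these comparisons, which share the DMSO libraries.

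**Figure D1:**
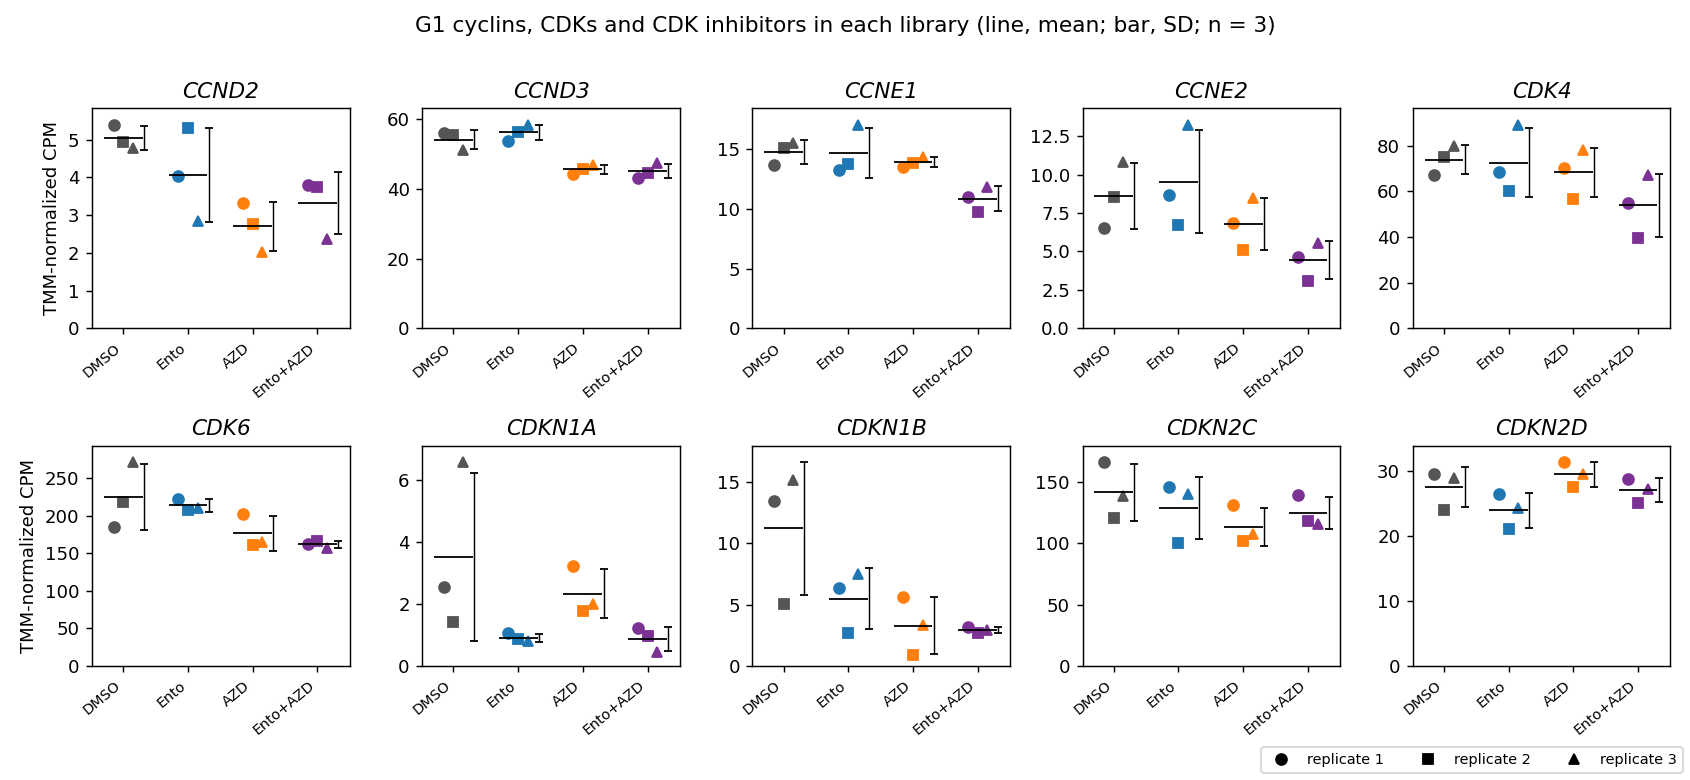
Level of each of the 10 members in each library, as TMM-normalized CPM on a linear axis from 0, by exposure group. Symbols mark the replicate number, the line is the mean and the bar the SD of 3 libraries; the mean levels of the E-type cyclins and CDK4 are lowest with Ento+AZD, and CDKN1A is low in all libraries that received Ento.

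CDKN1A (chr6:36676460-36687337, plus strand) encodes the CIP/KIP inhibitor that p53 induces. The DMSO libraries held 2.54, 1.42 and 6.59 CPM of CDKN1A in replicates 1, 2 and 3, that is 64, 31 and 168 counts. With Ento it stood at 1.05, 0.869 and 0.785 CPM, with AZD at 3.24, 1.76 and 1.98 CPM, and with Ento+AZD at 1.22, 0.952 and 0.451 CPM. All 6 libraries that received Ento lay below all 6 that did not, and DMSO replicate 3 was far above the rest. CDKN1A fell by 1.89 on the log2 scale with Ento (SE 0.45, adjusted p = 0.0194, edgeR's quasi-likelihood test) and by 1.89 with Ento+AZD (SE 0.46, adjusted p = 0.00485), while the log2 change with AZD was -0.53 (95% CI -1.37 to 0.31). Ento+AZD against Ento gave a log2 difference of 0.00 (95% CI -1.18 to 1.19), a wide interval that leaves both directions possible. Between the groups with AZD, adding Ento came with a log2 difference of -1.36 (SE 0.48, adjusted p = 0.0785), lower in 3 of 3 replicate-numbered pairs but not past the threshold. This difference passed in 6 of 20 alternative fits, among them 2 that left out a single library. The high DMSO replicate 3 set the size of the change: without it the log2 change was -0.98 with Ento (adjusted p = 0.0560) and -1.01 with Ento+AZD (adjusted p = 0.0137). The call with Ento was also lost without Ento replicate 1 (adjusted p = 0.0901) or Ento replicate 3 (adjusted p = 0.110).

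CDKN1B (chr12:12685498-12722369, plus strand) encodes the inhibitor that restrains CDK2 in resting cells and is removed through the ubiquitin ligase subunit SKP2. Its levels were 13.5, 5.03 and 15.2 CPM with DMSO, 6.34, 2.66 and 7.46 CPM with Ento, 5.60, 0.908 and 3.34 CPM with AZD and 3.13, 2.67 and 2.93 CPM with Ento+AZD. Replicate 2 was the lowest library of every group, and all 3 Ento+AZD libraries lay below all DMSO libraries, whereas the single-agent groups overlapped DMSO. CDKN1B fell by 1.02 on the log2 scale with Ento (SE 0.26, adjusted p = 0.0255, edgeR's quasi-likelihood test). With AZD it fell by 1.78 (SE 0.27, adjusted p = 9.11e-04), and with Ento+AZD it fell by 1.83 (SE 0.28, adjusted p = 1.88e-04). Within replicate numbers the log2 changes with Ento were alike at -1.09, -0.92 and -1.02, while those with AZD were -1.27, -2.47 and -2.18. Ento+AZD against AZD gave a log2 difference of -0.05 (95% CI -0.71 to 0.62), with replicate 2 higher by 1.55 and replicate 1 at -0.84. The calls with AZD and with Ento+AZD held whichever single library was left out. The call with Ento was lost without DMSO replicate 1, Ento replicate 1, Ento replicate 2, DMSO replicate 3 or Ento replicate 3 (adjusted p = 0.0504, 0.154, 0.104, 0.110 and 0.0562).

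CCND2 (chr12:4269771-4305353, plus strand), a D-type cyclin that responds to antigen receptor signals in B cells, was scarce. It was counted at 5.40, 4.94 and 4.79 CPM with DMSO and at 4.03, 5.32 and 2.85 CPM with Ento. AZD left 3.33, 2.78 and 2.03 CPM, and Ento+AZD 3.81, 3.76 and 2.37 CPM. Both groups with AZD lay below all DMSO libraries, while the Ento group straddled them. CCND2 fell by 0.91 on the log2 scale with AZD (SE 0.18, adjusted p = 0.00397) and by 0.63 with Ento+AZD (SE 0.18, adjusted p = 0.0126). The Ento+AZD call was lost without DMSO replicate 3 (adjusted p = 0.0651) or without Ento+AZD replicate 3 (adjusted p = 0.0604). CCND2 shares 999 exonic bases with another annotated protein-coding gene on its own strand, and its reads are uncertain there.

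CCND3 (chr6:41934934-42050357, minus strand) was the main D-type cyclin of these cells. DMSO libraries held 55.9, 55.3 and 51.1 CPM and Ento libraries 53.8, 56.3 and 58.2 CPM. All AZD libraries (44.3, 45.5 and 46.9 CPM) and all Ento+AZD libraries (43.2, 44.6 and 47.4 CPM) lay below both. The change was small: CCND3 fell by 0.25 with AZD (SE 0.08, adjusted p = 0.0330) and by 0.26 with Ento+AZD (SE 0.08, adjusted p = 0.0137), which corresponds to a level 16.7% lower. Relative to Ento, CCND3 fell by 0.32 with Ento+AZD (SE 0.08, adjusted p = 0.0103), and it fell by 0.30 with AZD (SE 0.08, adjusted p = 0.0172). Each of these calls was lost when some single libraries were left out, while the log2 change kept its direction. The call with AZD was lost without DMSO replicate 1, Ento replicate 1, AZD replicate 1, DMSO replicate 2, AZD replicate 2 or AZD replicate 3 (adjusted p = 0.114, 0.0525, 0.0898, 0.0768, 0.116 and 0.109), that with Ento+AZD without DMSO replicate 1 or Ento+AZD replicate 1 (adjusted p = 0.0582 and 0.0716), that against Ento without Ento+AZD replicate 1 or Ento replicate 3 (adjusted p = 0.0632 and 0.0666), and that between the single agents without any single one of their 6 libraries (adjusted p from 0.0575 to 0.0918).

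The E-type cyclins changed with the combination. CCNE1 (chr19:29811991-29824312, plus strand) was measured at 13.6, 15.1 and 15.5 CPM with DMSO, 13.2, 13.7 and 17.0 CPM with Ento, 13.5, 13.8 and 14.3 CPM with AZD and 11.0, 9.71 and 11.8 CPM with Ento+AZD. All 3 Ento+AZD libraries lay below all 9 others. CCNE1 fell by 0.44 against DMSO (SE 0.11, adjusted p = 0.00445), by 0.43 against Ento (SE 0.11, adjusted p = 0.0114) and by 0.36 against AZD (SE 0.11, adjusted p = 0.0430). The log2 changes of the single agents against DMSO were -0.01 (95% CI -0.23 to 0.21) for Ento and -0.08 (95% CI -0.30 to 0.14) for AZD. No single library ended the call against DMSO. The call against Ento was lost without Ento+AZD replicate 2 (adjusted p = 0.0502) or Ento replicate 3 (adjusted p = 0.0889), and that against AZD without any single AZD or Ento+AZD library, Ento replicate 1 or Ento replicate 2 (adjusted p from 0.0554 to 0.163), in DESeq2 (adjusted p = 0.0578) and with no filter on low counts (adjusted p = 0.0587).

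CCNE2 (chr8:94879770-94896678, minus strand) showed the larger change of the pair. Levels were 6.51, 8.51 and 10.8 CPM with DMSO, 8.65, 6.75 and 13.2 CPM with Ento, 6.86, 5.07 and 8.46 CPM with AZD and 4.64, 3.09 and 5.52 CPM with Ento+AZD. The Ento+AZD libraries lay below all DMSO and Ento libraries and overlapped those of AZD. CCNE2 fell by 0.97 on the log2 scale against DMSO (SE 0.17, adjusted p = 5.40e-04) and by 1.10 against Ento (SE 0.17, adjusted p = 8.87e-04), and no single library ended these calls. Against AZD it fell by 0.63 (SE 0.18, adjusted p = 0.0336), with log2 differences of -0.56, -0.71 and -0.62 in replicates 1, 2 and 3. That call was lost without AZD replicate 1, AZD replicate 2, AZD replicate 3, Ento replicate 1, Ento+AZD replicate 2 or Ento+AZD replicate 3 (adjusted p from 0.0531 to 0.155). The 3′ part of CCNE2 shares 1629 exonic bases with INTS8 on the opposite strand, and the use of the strand in counting is not given in the sources used here. INTS8 was measured at 139 to 154 CPM with DMSO and at 137 to 143 CPM with Ento+AZD.

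CDK4 (chr12:57747727-57756013, minus strand), a kinase partner of the D-type cyclins, stood at 67.0, 74.9 and 79.8 CPM with DMSO, 68.3, 60.2 and 89.2 CPM with Ento, 70.2, 56.9 and 77.9 CPM with AZD and 54.7, 39.6 and 67.1 CPM with Ento+AZD. The groups overlapped, yet Ento+AZD was the lowest library within each replicate number. CDK4 fell by 0.49 on the log2 scale against DMSO (SE 0.11, adjusted p = 0.00295), by 0.44 against Ento (SE 0.11, adjusted p = 0.0117) and by 0.36 against AZD (SE 0.11, adjusted p = 0.0463). The call against DMSO held without any single library. The call against Ento was lost without Ento+AZD replicate 2 (adjusted p = 0.0568) or Ento replicate 3 (adjusted p = 0.0846), and that against AZD without any single one of the 9 libraries that received an agent (adjusted p from 0.0584 to 0.201). CDK4 shares 1369 exonic bases with TSPAN31 on the opposite strand, so their reads may be confused. TSPAN31 moved the other way, with 36.0, 33.7 and 21.1 CPM with DMSO and 46.9, 57.9 and 42.4 CPM with Ento+AZD, and its part in the CDK4 values was not tested.

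CDK6 (chr7:92604921-92836573, minus strand), the other kinase partner of the D-type cyclins, was counted at 185, 217 and 271 CPM with DMSO, 223, 207 and 210 CPM with Ento, 203, 161 and 165 CPM with AZD and 162, 166 and 157 CPM with Ento+AZD. The DMSO libraries were widely spread and the Ento+AZD libraries close together, below all DMSO and Ento libraries. CDK6 fell by 0.47 on the log2 scale with Ento+AZD (SE 0.12, adjusted p = 0.00608), a call that no single library ended. With Ento+AZD against Ento, CDK6 fell by 0.40 (SE 0.12, adjusted p = 0.0289). With AZD alone CDK6 fell by 0.35 (SE 0.12, adjusted p = 0.0470), although replicate 1 was higher by 0.13 and only replicates 2 and 3 were lower. Without DMSO replicate 3 the log2 change with AZD was -0.17 (adjusted p = 0.279), and this call was also lost without DMSO replicate 2, AZD replicate 2, AZD replicate 3, any single Ento library, Ento+AZD replicate 1 or Ento+AZD replicate 3 (adjusted p from 0.0563 to 0.252). The call against Ento was lost without any single Ento library, Ento+AZD replicate 1 or Ento+AZD replicate 3 (adjusted p from 0.0693 to 0.125).

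Neither INK4 inhibitor of this set passed the test with Ento+AZD against DMSO, whereas CDKN2A, an INK4 gene outside the set, was lower. CDKN2C (chr1:50960745-50974634, plus strand), known to act when plasma cells leave the cell cycle, had 167, 120 and 139 CPM with DMSO, 146, 100 and 140 CPM with Ento, 131, 102 and 108 CPM with AZD and 140, 118 and 116 CPM with Ento+AZD. The groups overlapped, and replicate 1 was the highest library in each. CDKN2C fell by 0.32 on the log2 scale with AZD (SE 0.09, adjusted p = 0.0186), and its change with Ento+AZD was -0.18 (95% CI -0.36 to 0.01, adjusted p = 0.117). The call with AZD was lost without DMSO replicate 1 (adjusted p = 0.0514), AZD replicate 2 (adjusted p = 0.0512) or AZD replicate 3 (adjusted p = 0.120). An annotated lncRNA on the opposite strand shares 617 exonic bases with CDKN2C.

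CDKN2D (chr19:10566460-10569059, minus strand), the INK4 gene whose transcript is known to vary over the cell cycle, had 29.5, 24.0 and 28.9 CPM with DMSO and 28.7, 25.0 and 27.1 CPM with Ento+AZD. The log2 difference of these groups was -0.02, with a 95% CI from -0.19 to 0.14. Ento libraries held 26.4, 21.0 and 24.3 CPM and AZD libraries 31.3, 27.5 and 29.4 CPM, without overlap. CDKN2D was higher with AZD than with Ento by 0.30 on the log2 scale (SE 0.08, adjusted p = 0.0202), higher in 3 of 3 replicate-numbered pairs, and it was the only member higher in any comparison of this fit. The call was lost without any single one of the 6 libraries of these groups (adjusted p from 0.0509 to 0.103) and with no filter on low counts (adjusted p = 0.0600).

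**Figure D2:**
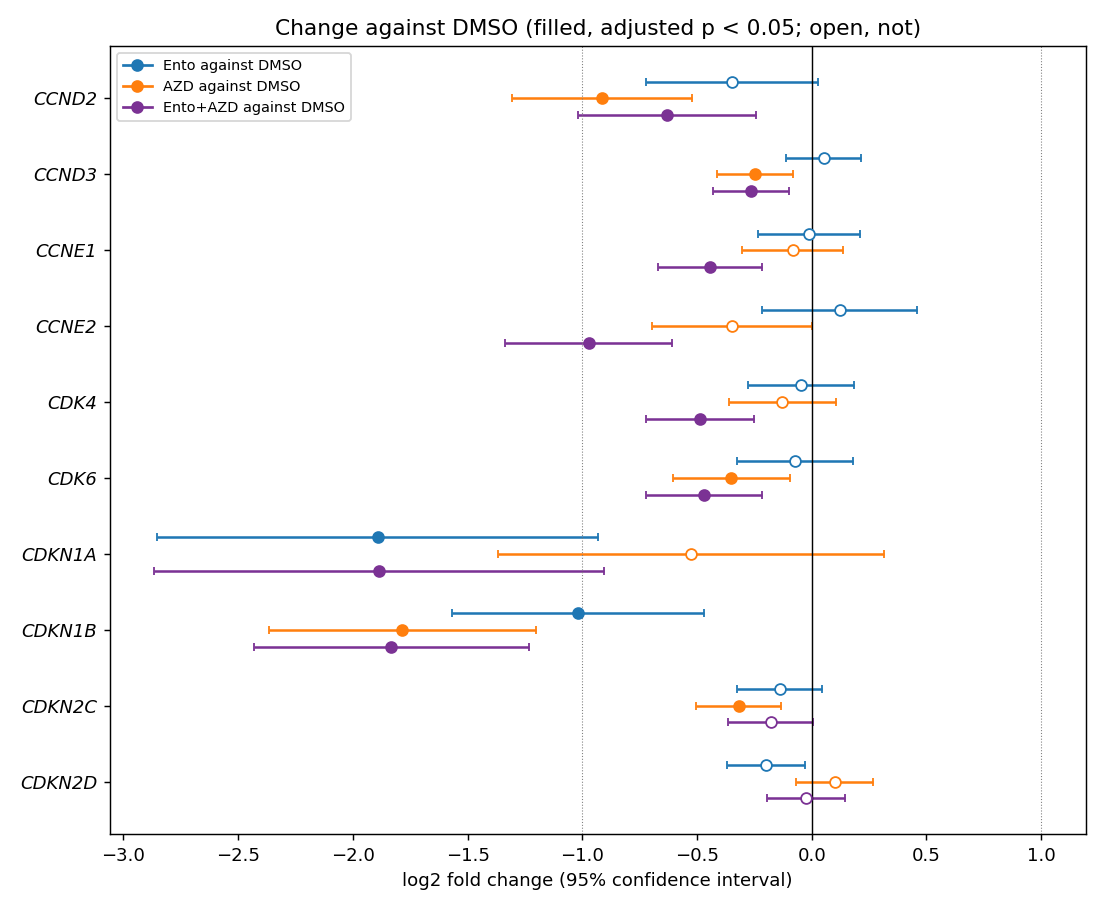
Log2 fold change of each member against DMSO with Ento, AZD and Ento+AZD; points are estimates of edgeR's quasi-likelihood fit over 12 libraries, bars are 95% confidence intervals and filled points have an adjusted p under 0.05. CDKN1A and CDKN1B reach beyond -1 with Ento+AZD at -1.89 and -1.83, while CDKN2D lies at -0.02.

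Side by side, the combination and its single agents gave these counts. Ento+AZD was lower than Ento for 5 of 10 members (12.2% of all genes), CCND3, CCNE1, CCNE2, CDK4 and CDK6, and higher for none (8.27% of all genes). CCNE2 was the 1 DEG, where 2.47% of all genes were lower DEGs. Compared with AZD, 3 of 10 were lower with Ento+AZD (6.04% of all genes), both E-type cyclins and CDK4, and none was higher (5.85% of all genes). AZD and Ento differed for CCND3, lower with AZD (1 of 10 members and 8.99% of all genes), and for CDKN2D, higher with AZD (1 of 10 members and 5.73% of all genes).

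Whether the combination departed from the sum of the single-agent log2 changes was tested as the interaction of Ento and AZD. No member passed at an adjusted p under 0.05 in edgeR's quasi-likelihood test, and neither did any of the 16835 genes (0% of all genes in either direction), although 1652 genes (9.81% of all genes) and 5 members had an unadjusted p under 0.05. DESeq2 gave 7 genes at an adjusted p under 0.05 and 1198 at an unadjusted p under 0.05, none and 2 of them members, respectively. The interaction of CCNE2 was -0.75 on the log2 scale (SE 0.24, adjusted p = 0.444) and that of CCNE1 -0.35 (SE 0.15, adjusted p = 0.486), towards a lower level than the sum. For CDKN1B it was 0.97 (SE 0.40, adjusted p = 0.480), for CCND2 0.63 (SE 0.26, adjusted p = 0.480) and for CDKN2C 0.28 (SE 0.12, adjusted p = 0.494), towards a higher level than the sum. These are the 5 members with an unadjusted p under 0.05, and a difference from additivity was not shown for any of them in this fit. In edgeR's quasi-likelihood test with no filter on low counts CDKN1B passed (adjusted p = 0.0152, 0.392% of all genes higher). Without DMSO replicate 2 CCNE2 passed in that test (adjusted p = 0.0370, 0.875% of all genes lower). Each passed in only 1 of 19 alternative fits.

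**Figure D3:**
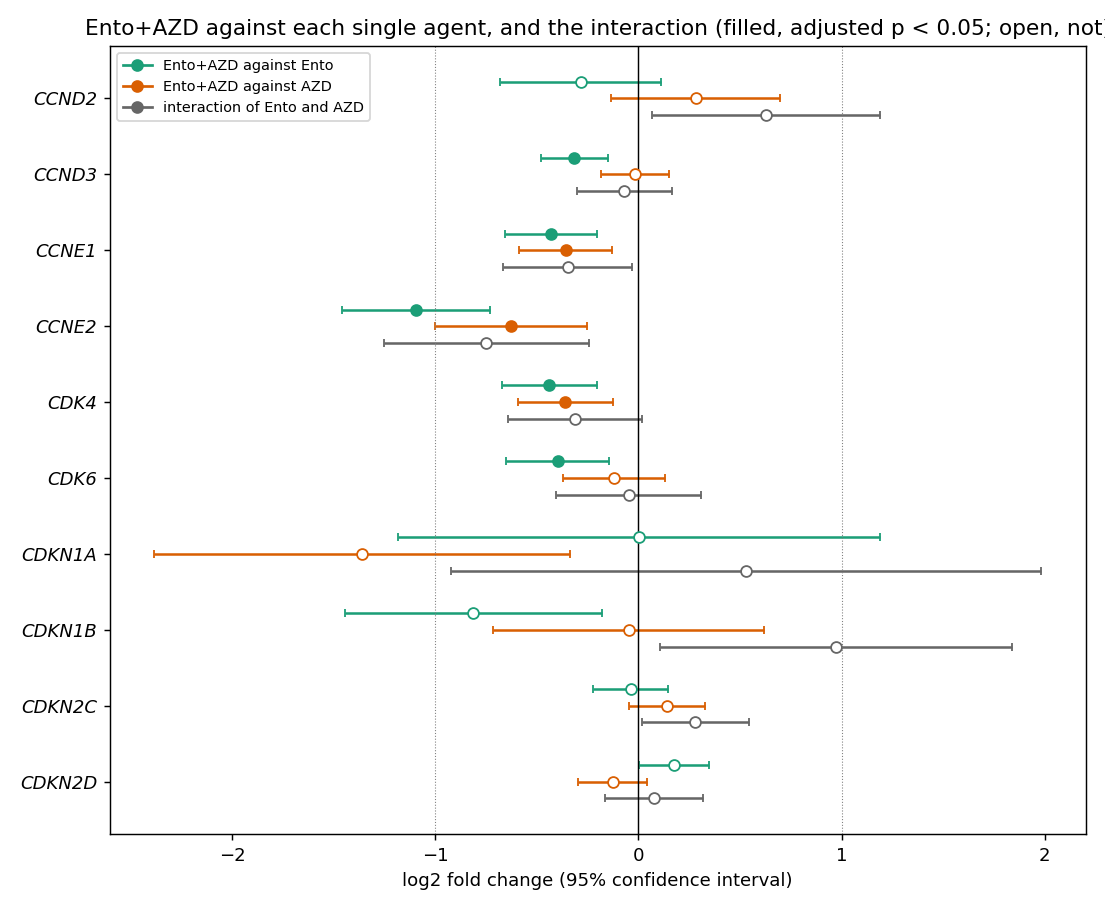
Log2 fold change of each member with Ento+AZD against Ento and against AZD, and the interaction of the agents; points are estimates of edgeR's quasi-likelihood fit over 12 libraries, bars are 95% confidence intervals and filled points have an adjusted p under 0.05. CCNE1, CCNE2 and CDK4 are lower against both single agents, and no interaction is filled.

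The replicate number carried much of the spread, and the counts of calls depend on its place in the model. Without the replicate block, 5 of 10 members were lower with Ento+AZD than with DMSO (7.79% of all genes): CCND3, CCNE1, CDK6, CDKN1A and CDKN1B. The adjusted p of the others was then 0.126 for CCND2, 0.0512 for CCNE2 and 0.121 for CDK4. No member was lower without the block with Ento (0.0594% of all genes), with AZD (1.31%), with Ento+AZD against Ento (0.808%), with Ento+AZD against AZD (0.0178%) or with AZD against Ento (2.2%), so the calls of these comparisons rest on pairing libraries by number.

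For a comparison between genes, levels were scaled to transcript length, here as CPM per kb of the MANE Select transcript. Which transcripts these cells use was not examined, so the order and the shares that follow rest on this choice of length. With DMSO the order was CDKN2C at 143 ± 23.3 (SD, n = 3), CDK4 at 39.6 ± 3.45, CCND3 at 26.7 ± 1.30, CDKN2D at 19.3 ± 2.14, CDK6 at 19.3 ± 3.72, CCNE1 at 7.54 ± 0.504, CDKN1B at 4.66 ± 2.25, CCNE2 at 3.22 ± 0.809, CDKN1A at 1.66 ± 1.29 and CCND2 at 0.777 ± 0.0489 CPM per kb. Neighbours whose libraries overlapped were CDKN2D and CDK6, CDKN1B and CCNE2, CCNE2 and CDKN1A, and CDKN1A and CCND2. CDKN2C was thus the most abundant transcript of the set per length, and it was so in all 4 groups. CDKN1A stood in the ninth place with DMSO and in the tenth with Ento and with Ento+AZD, below CCND2, whose libraries it overlapped in both groups.

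Within pairs of relatives the shares per length differed in how they followed the exposures. CCND2 made up 2.83 ± 0.107% (SD, n = 3) of the D-type cyclins with DMSO and 1.83 ± 0.479% with AZD, without overlap of the libraries. The share of CCNE2 in the E-type cyclins was 29.6 ± 3.97% with DMSO and 22.6 ± 3.37% with Ento+AZD, with all Ento+AZD libraries (18.9 to 25.4%) below the DMSO libraries (25.9 to 33.8%). CDK6 held 32.5 ± 2.39% of the CDK4 and CDK6 level with DMSO and 33.2 ± 6.53% with Ento+AZD, a difference within the spread. CDKN1B held 75.0 ± 7.77% of the CIP/KIP level with DMSO but 50.4 ± 16.6% with AZD, where the libraries (31.1 to 60.3%) lay below those of all other groups. For CDKN2C the share in the INK4 pair was 88.0 ± 0.869% with DMSO and 84.6 ± 0.966% with AZD, again below all libraries of the other groups. The summed CIP/KIP level was 6.32 ± 3.35 CPM per kb with DMSO and 1.62 ± 0.230 with Ento+AZD. The sum of CDKN2C and CDKN2D, which leaves out CDKN2A, was 162 ± 25.2 with DMSO and 144 ± 14.1 with Ento+AZD. These shares and sums were not tested.

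**Figure D4:**
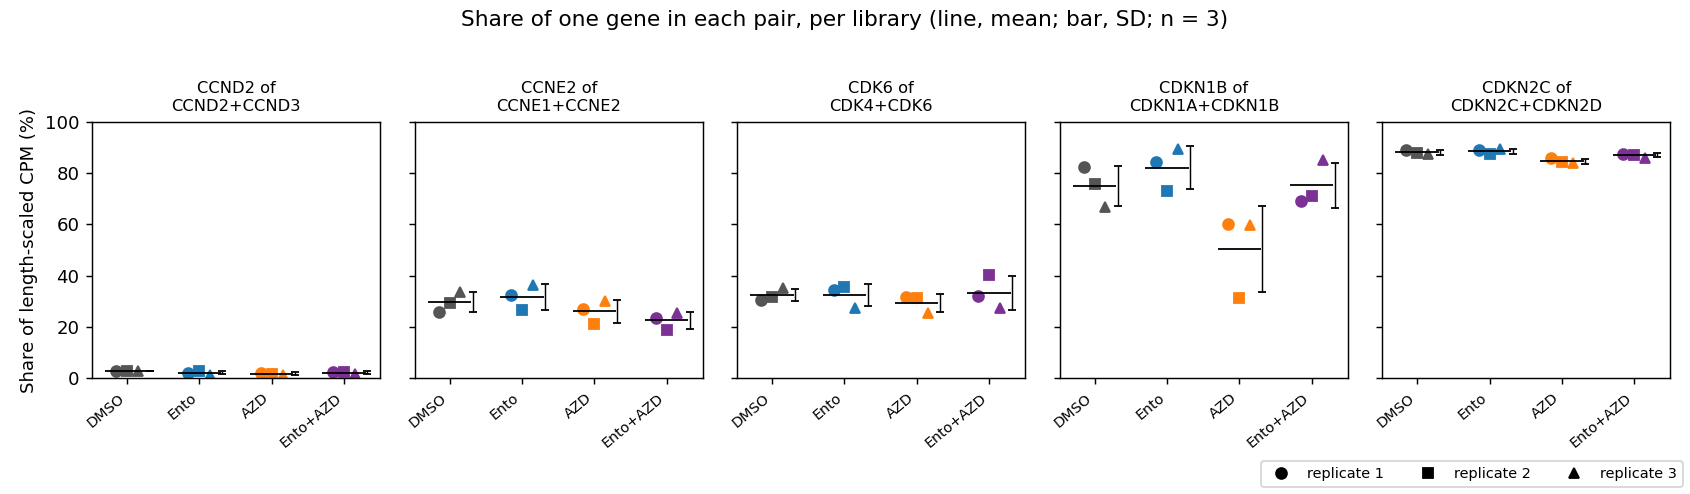
Share of the first gene in each pair of relatives, in percent of the length-scaled CPM of both, per library; symbols mark the replicate number, lines the mean and bars the SD of 3 libraries. CDKN1B holds 31.1 to 60.3% of the CIP/KIP pair with AZD and more in all other libraries, while the CDK6 share overlaps between all groups.

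The genes whose levels followed a member most closely over the 12 libraries were found by Pearson's r of log2 CPM after removal of the replicate number, as a description in which all values share the libraries and the group differences. For CDKN1A they were NECTIN1 (r = 0.966), ZNF799 (r = 0.957) and LONRF1 (r = 0.943). For CDKN1B they were TMEM263 (r = 0.988), SOWAHD (r = 0.980) and LINC01749 (r = 0.972). CCNE2 was followed by RFC2 (r = 0.984), a subunit of the clamp loader of replication, HNRNPD (r = 0.983) and LRRC45 (r = 0.982). NECTIN1 had log2 changes of -1.89 with Ento, -0.85 with AZD and -2.00 with Ento+AZD, beside -1.89, -0.53 and -1.89 for CDKN1A. ZNF799 and LONRF1 changed far less with Ento+AZD, by -0.47 and -0.15, and did not pass edgeR's quasi-likelihood test (adjusted p = 0.107 and 0.109).

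Of 32 other genes of the G1/S machinery, 30 were tested. With Ento+AZD 13 were lower (20.8% of all genes) and 6 higher than with DMSO (19.2% of all genes), with a median log2 change of -0.13, so the share of higher genes was near that of all genes. With AZD 10 were lower (12.7% of all genes) and 5 higher (9.57% of all genes). With Ento 1 was lower and 1 higher, near the 3.66% and 4.66% of all genes. The 6 lower DEGs with Ento+AZD were E2F2 (-2.05), which encodes an activating E2F, CCNA2 (-1.87), the cyclin that follows the E-type cyclins on CDK2, CDC25A (-1.69), a phosphatase that activates CDK2, CDK2 itself (-1.39), FBXO4 (-1.24) and SKP2 (-1.23), the subunit that targets CDKN1B protein for degradation. CDK2 held 98.2, 91.7 and 133 CPM with DMSO and 47.3, 22.9 and 61.4 CPM with Ento+AZD, without overlap. SKP2 and CDKN1B transcripts were thus both lower, by 1.23 and 1.83 on the log2 scale.

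Of the relatives outside the set, CCND1 had 0 to 22 counts per library and CDKN1C 0 counts in all 12. CDKN2B had 16 to 43 counts. CDKN2A, whose locus encodes an INK4 inhibitor, was expressed at 52.3 ± 6.43 CPM (SD, n = 3) with DMSO and 32.9 ± 6.56 CPM with Ento+AZD, a log2 change of -0.68 (SE 0.11, adjusted p = 3.68e-04, edgeR's quasi-likelihood test).

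Of 25 genes known as p53 targets, CDKN1A not included, 23 were tested. With Ento+AZD 5 were lower and 5 higher, with a median log2 change of -0.15, near the 20.8% and 19.2% of all genes. With Ento 2 were lower (3.66% of all genes) and 4 higher (4.66% of all genes), with a median of -0.10. DDB2 was the only DEG with Ento+AZD (-1.19), a repair factor that recognizes UV damage.

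With Ento+AZD most S phase and G2/M phase genes were lower, as were the E-type cyclins and CDK4. With AZD many of these phase genes were lower as well, but CCNE1, CCNE2 and CDK4 did not pass the test there (log2 changes -0.08, -0.35 and -0.13). Of 42 S phase genes, 2 were lower with Ento (3.66% of all genes), 24 with AZD (12.7% of all genes) and 40 with Ento+AZD (20.8% of all genes), none higher, and their median log2 change with Ento+AZD was -1.28. For 50 tested G2/M genes the numbers were 3, 42 and 48, with a median of -1.27. The counts of both lists with Ento were near the share of all genes. Their median log2 changes with Ento were nevertheless below that of all genes (0.01), at -0.21 for the S phase and -0.34 for the G2/M genes. The summed level of the S phase genes was 3343 to 5203 CPM with DMSO, 2314 to 5244 with Ento, 2024 to 3512 with AZD and 1096 to 2685 with Ento+AZD. In each group that received an agent the lowest library was replicate 2, which was also the lowest library of CDK4 and CCNE2 in these groups. It was the lowest of the inhibitors CDKN1B and CDKN2D there too. CCNE1 differed, with its lowest library in replicate 1 with Ento (13.2 CPM) and with AZD (13.5 CPM). The part of the cell cycle distribution in the members' values was not tested.

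**Figure D5:**
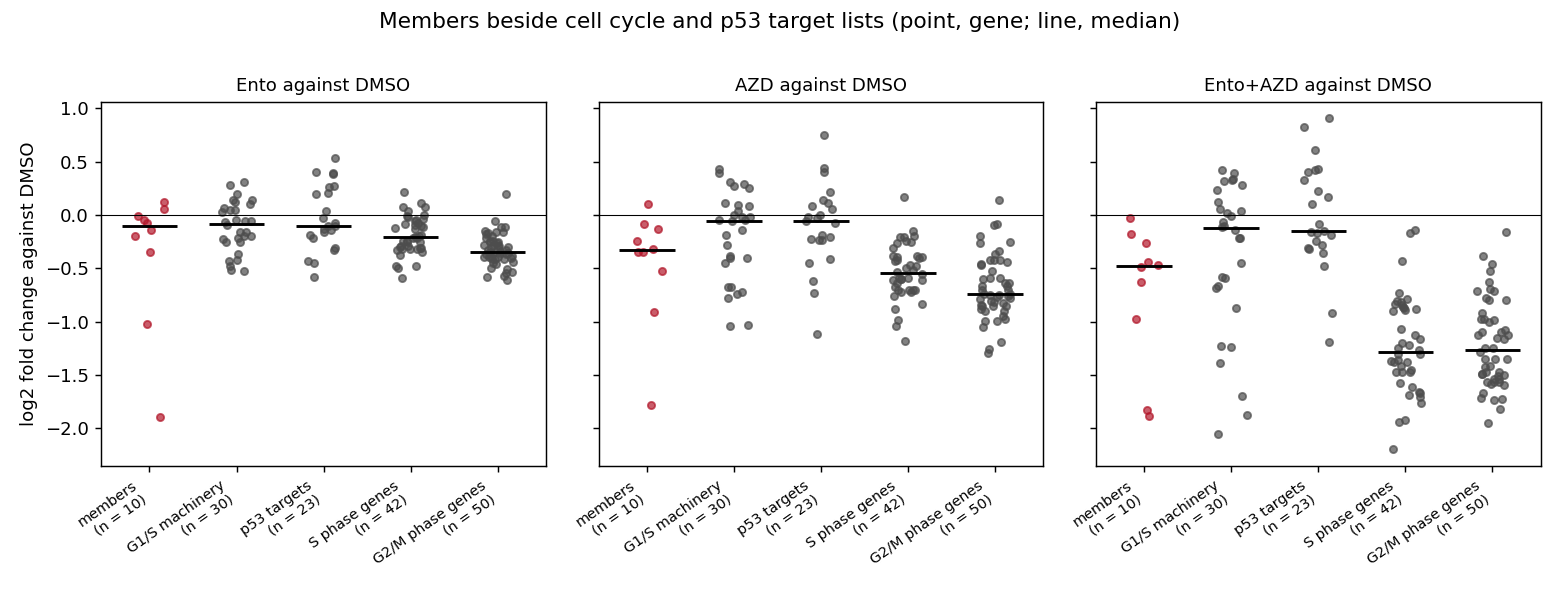
Log2 fold change against DMSO of the 10 members, 30 genes of the G1/S machinery, 23 p53 targets, 42 S phase genes and 50 G2/M phase genes, in 3 panels for Ento, AZD and Ento+AZD; each point is a gene and the line the median. With Ento+AZD the median of the members is -0.48, between those of the G1/S list at -0.13 and the S phase list at -1.28.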

How the data were processed

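The samples were 12 RNA libraries of SU-DHL-4, 3 in each of 4 exposure groups. The authors trimmed single reads with CutAdapt via TrimGalore, aligned them to GRCh38.p13, counted reads per gene with Rsubread and deposited whole-number counts for 46863 gene symbols without normalization; the submitters' processing notes also name bcl2fastq 2.19 and edgeR. The strand setting and annotation release of the counting are not given in the sources used here. A second deposited table of log2 values was not used. Groups and replicate numbers came from the sample labels, and 0 columns of values were left unmapped. The rule takes the 10 members by gene symbol alone, but this set of symbols, the gene lists and the tests were chosen with earlier results of these data known.

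Counts were filtered with filterByExpr (minimum count 10, minimum total 15) and normalized by TMM in edgeR 4.0.16 (R 4.3.3). A model of all 12 libraries held treatment group and replicate number without intercept. The quasi-likelihood F-test gave each contrast's p-values, which were adjusted over 16835 genes by the Benjamini-Hochberg method. Genes with an adjusted p under 0.05 were called, and those with an absolute log2 fold change over 1 in addition were DEGs. The standard error was taken as the size of the log2 change over the root of its F statistic. The scripts were tested on simulated data. DESeq2 1.42.0 was an alternative, as were no replicate block, RLE scaling, no filter on low counts, only the groups compared and leaving out each library. Leaving out all libraries of a replicate number was chosen after seeing the data.

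The replicate numbers come from the labels and the study's model has a batch term. Deviations from the group means correlated at 0.213 to 0.703 between libraries with the same number (18 pairs) and at -0.627 to 0.325 between different numbers (36 pairs), so the numbers were taken to pair the libraries. Libraries within a group differed by more than sampling noise (chi-square per degree of freedom 8.21 to 48.5), and none was counted as a copy. Genes named were the 10 members, the 3 genes most like each of the 3 members with the largest called change with Ento+AZD (limma 3.58.1 removed the replicate number, prior count 2), the DEGs of the G1/S and p53 target lists with Ento+AZD, and CCND1, CDK2, CCNA2, CDKN1C and the INK4 genes of the lists. TSPAN31 and INTS8 were added for their overlap with members. Coordinates and transcript lengths are those of GENCODE release 44 on GRCh38.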

Additional observations from a re-analysis of the deposited data

How the results depend on the processing

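Over 70 log2 changes of the members and 1390 alternative values, 1151 kept their direction and their side of the threshold, 149 lost a call, 41 gained one and 49 turned direction. Gains were most frequent for CDKN1A in AZD against Ento (7 of 20 fits). They followed for CDKN1A in Ento+AZD against AZD and CDKN1B in Ento+AZD against Ento (6 of 20 fits each). Without the replicate block the number of lower members was 0 with Ento, 0 with AZD, 5 with Ento+AZD, 0 for Ento+AZD against Ento, 0 for Ento+AZD against AZD and 0 for AZD against Ento, where 0 were higher. DESeq2 gave 1 lower member with Ento and 2 higher for AZD against Ento. Fitting only the groups compared gave 3 lower members with AZD and, for AZD against Ento, 5 lower and 2 higher. With no filter on low counts AZD against Ento had 5 lower members and the interaction 1 higher. CDKN1A in Ento+AZD against Ento turned from 0.00 to -0.0325 without the replicate block, -0.0438 with only the groups compared and -0.0132 with DESeq2, and CDKN1B in Ento+AZD against AZD from -0.05 to 0.12 with DESeq2; the cause was not tested. Leaving out a library or a replicate number gave 0 to 2 lower members with Ento, 1 to 5 with AZD, 5 to 9 with Ento+AZD, 1 to 6 for Ento+AZD against Ento, 0 to 4 for Ento+AZD against AZD, 0 to 3 lower and 0 to 2 higher for AZD against Ento, and 0 to 1 lower for the interaction. The log2 changes that turned direction in these fits ranged, with Ento, from -0.0556 to 0.34 for CCNE2, -0.0957 to 0.0455 for CCNE1, -0.16 to 0.12 for CDK4, -0.0215 to 0.11 for CCND3 and -0.24 to 0.10 for CDK6; with AZD, from -0.22 to 0.0427 for CDK4 and -0.99 to 0.39 for CDKN1A; with Ento+AZD, from -0.0783 to 0.0117 for CDKN2D; against Ento, from -0.33 to 0.50 for CDKN1A and -0.17 to 0.0936 for CDKN2C; against AZD, from -0.21 to 0.0213 for CDK6, -0.57 to 0.58 for CDKN1B and -0.0547 to 0.00656 for CCND3; for AZD against Ento, from -0.12 to 0.0287 for CCNE1; and for the interaction, from -0.23 to 0.21 for CDK6, -0.12 to 9.32e-04 for CCND3 and -0.42 to 0.97 for CDKN1A. None of these was called with all libraries. Leaving out a whole replicate number ended the Ento+AZD calls against DMSO of CCND2 (number 1, adjusted p = 0.0542, and number 3, adjusted p = 0.138), CCND3 (number 1, adjusted p = 0.158, and number 2, adjusted p = 0.0740), CCNE1 (number 2, adjusted p = 0.0541), CDK6 (number 3, adjusted p = 0.0893) and CDKN1A (number 3, log2 change -0.84, adjusted p = 0.0511), while those of CCNE2, CDK4 and CDKN1B held. It also ended the AZD call of CCND2 (number 3, adjusted p = 0.0632), and of the members' calls in the other comparisons only those of CDKN1B with AZD and CCNE2 for Ento+AZD against Ento held under every such omission. Under the other alternatives besides the block, calls ended for CDKN1B with Ento (DESeq2, adjusted p = 0.0997), CCND3 with AZD (no filter on low counts, adjusted p = 0.0737, and only the groups compared, adjusted p = 0.119), CDK6 with AZD (only the groups compared, adjusted p = 0.108), CCND3 with Ento+AZD (only the groups compared, adjusted p = 0.0802), CCNE1 for Ento+AZD against AZD (no filter, adjusted p = 0.0587, and DESeq2, adjusted p = 0.0578) and CDKN2D for AZD against Ento (no filter, adjusted p = 0.0600, where CDKN1A was the higher member instead). CDKN1A, with 8 to 168 counts per library, is the member whose values depth limits most.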

Other observations

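Among the 23 tested p53 targets the largest increase with Ento+AZD was that of TP53INP1, an autophagy and stress protein, at 0.91 on the log2 scale (adjusted p = 9.34e-05, edgeR's quasi-likelihood test), followed by XPC, a DNA damage sensor, at 0.83 (adjusted p = 1.06e-05). BBC3, a pro-apoptotic BH3 protein, fell by 1.12 with AZD (adjusted p = 0.00340). These genes were named after their values were seen.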
